A study of Mus musculus with 6 samples.

Results

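The genes Rag1, Rag2, Dntt, Hmgb1 and Hmgb2, which encode the enzymes and DNA-bending partners that begin and diversify V(D)J recombination, were followed in mouse pro-B cells. They were chosen by gene name, and all 5 were found once each among the 54752 gene identifiers of the 6 expression tables. Pro-B cells are early B lineage cells of the bone marrow, in which heavy chain gene segments are joined. They were sorted by flow cytometry from adult C57BL/6 mice, with 3 Skiv2lfl/fl-Cd79a-Cre mice (Skiv2l-deleted) and 3 Skiv2lfl/fl mice (control), 1 library per mouse. Both groups carry floxed alleles of Skiv2l, which encodes the helicase of the cytosolic SKI RNA decay complex, and the labels name the Cd79a-Cre driver, active from early B lineage stages, in the Skiv2l-deleted mice alone. Effects of Cre and of the loss of Skiv2l therefore cannot be told apart. The comparison asks how the messages of the recombination machinery stand when Skiv2l is deleted in B lineage cells.

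RAG1 and RAG2 form the recombinase that cuts DNA beside the variable, diversity and joining segments. RAG1 carries the catalytic site and contacts the recombination signal, and RAG2 is the essential cofactor that also reads a histone mark of active chromatin. HMGB1 and HMGB2 bend the signal DNA and help RAG bring a pair of signals together, and both are also abundant chromatin proteins. Terminal deoxynucleotidyl transferase (TdT), the product of Dntt, adds untemplated nucleotides to the opened ends and is characteristic of the pro-B stage.

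The promoters of 4 genes are printed because these genes moved apart, the RAG genes and Dntt upward and Hmgb2 downward. Each sequence is the 250 bases upstream of the RefSeq start site on the gene's own strand (GRCm38.p6). Capitals mark 3 motifs, read on both strands. CCAAT is the box bound by the factor NF-Y. CANNTG is the E-box that E proteins recognise. The motif TTTGAA is known from promoters of genes expressed in mitosis.
Rag1, chr2:101649533-101649782, minus strand: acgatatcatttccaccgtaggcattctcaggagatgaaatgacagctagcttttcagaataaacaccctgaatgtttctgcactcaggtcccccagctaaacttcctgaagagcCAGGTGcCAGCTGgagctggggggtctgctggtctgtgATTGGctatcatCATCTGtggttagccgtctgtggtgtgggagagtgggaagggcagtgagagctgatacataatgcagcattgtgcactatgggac
Rag2, chr2:101624462-101624711, plus strand: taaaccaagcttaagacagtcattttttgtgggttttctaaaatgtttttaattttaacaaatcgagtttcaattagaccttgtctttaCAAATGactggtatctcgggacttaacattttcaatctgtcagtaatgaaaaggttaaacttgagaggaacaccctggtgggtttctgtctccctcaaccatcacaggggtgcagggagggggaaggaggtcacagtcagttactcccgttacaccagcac
Dntt, chr19:41029025-41029274, plus strand: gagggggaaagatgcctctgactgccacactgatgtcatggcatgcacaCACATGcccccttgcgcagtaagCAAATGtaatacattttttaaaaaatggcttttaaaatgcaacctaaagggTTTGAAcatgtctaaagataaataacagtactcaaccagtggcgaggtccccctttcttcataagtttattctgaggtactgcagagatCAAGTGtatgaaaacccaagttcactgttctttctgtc
Hmgb2, chr8:57511593-57511842, plus strand: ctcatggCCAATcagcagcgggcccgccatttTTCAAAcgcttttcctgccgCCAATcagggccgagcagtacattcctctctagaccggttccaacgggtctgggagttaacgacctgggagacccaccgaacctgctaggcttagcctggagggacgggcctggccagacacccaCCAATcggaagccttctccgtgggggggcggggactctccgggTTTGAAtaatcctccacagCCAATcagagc
The Hmgb2 window held 4 CCAAT matches and 2 TTTGAA matches and no CANNTG. The Rag1 window held 1 CCAAT and 3 CANNTG matches, the Dntt window 3 CANNTG and 1 TTTGAA, and the Rag2 window 1 CANNTG. None of the 5 genes had TATAAA in its window, and each of the Rag1, Rag2 and Dntt windows had 1 match to GGGAA, the core bound by Ikaros factors, on either strand. The Hmgb1 window that starts at its upstream RefSeq site, not printed, held 3 CCAAT matches, and its other window held 0. These Hmgb1 windows held 2 and 1 matches to GGGAA, and the Hmgb2 window 0, so this core was not particular to the genes that rose. Among 32851 mouse promoter windows of the same length, 33.8% held CCAAT at least once and 2.79% at least 3 times. CANNTG stood in 66.2% and at least 3 times in 12.21%. At least 1 match was present to GGGAA in 56.2%, to TTTGAA in 16.0% and to TATAAA in 12.4%. These are letter matches and do not show that a factor is bound.

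Aligned bases, from the authors' coverage, came to 1.74 to 2.40 Gb a library, and 12975 to 13738 genes reached 1 FPKM. FPKM is the authors' expression level scaled to transcript length and library size. The Skiv2l message was at 9.53 FPKM, 16.1 FPKM and 10.9 FPKM after deletion, against 25.4, 20.2 and 46.3 FPKM in the controls, without overlap. Its limma adjusted p was 0.063, and the labels do not name the deleted exons. Cd79a, whose name the Cre driver carries, averaged 391.9 ± 42.5 FPKM in Skiv2l-deleted cells and 702 ± 53.8 FPKM in controls (SD, n = 3 each, limma adjusted p = 0.0123). The libraries Skiv2l-deleted 2 and control 3 stood apart from the other 4 on the second principal component. The granulocyte enzyme gene Mpo was at 641 and 343 FPKM in these libraries and at 4.3 to 8.99 FPKM in the others, and Elane, Lyz2 and Csf1r were likewise highest in this pair. S100a8 and S100a9, neutrophil genes, were not confined to it. S100a8 stood at 100.1, 207 and 1.97 FPKM in Skiv2l-deleted libraries and at 2.30, 129 and 153 FPKM in controls, and S100a9 at 165, 243 and 1.98 FPKM in Skiv2l-deleted libraries and at 1.50, 217 and 177 FPKM in controls. Ly6g was below 1 FPKM in all 6. Each member is also given without Skiv2l-deleted 2 and control 3. Of 13539 genes tested with limma on log2(FPKM + 1), 8.84% were called at an adjusted p below 0.05, 4.97% higher and 3.87% lower in Skiv2l-deleted cells. The median log2 fold change of all tested genes was 0.06.

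The 5 genes did not move as a block. Rag1, Rag2 and Dntt rose, Hmgb2 fell, and Hmgb1 did not pass the test, so 4 of the 5 were called, where 8.84% of all tested genes were. The count was 0 without Skiv2l-deleted 1 or Skiv2l-deleted 3, 2 without Skiv2l-deleted 2, 1 without control 1, 2 without control 2, 4 without control 3 and 3 without both Skiv2l-deleted 2 and control 3. All genes called, 1197 with 6 libraries, numbered 184, 663 and 179 without Skiv2l-deleted 1, 2 and 3 in turn. They numbered 381, 475 and 1749 without control 1, 2 and 3, and 1683 without both Skiv2l-deleted 2 and control 3. The groups did not overlap in 4 of the 5, where 32.2% of all tested genes had this property. All 5 passed the filter on low values in every library. Since the genes were picked with earlier results of these data known, the counts describe them and do not set them apart as a list. In sorted populations measured in bulk, fewer cells of a type and less RNA per cell cannot be told apart.

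**Figure D1:**
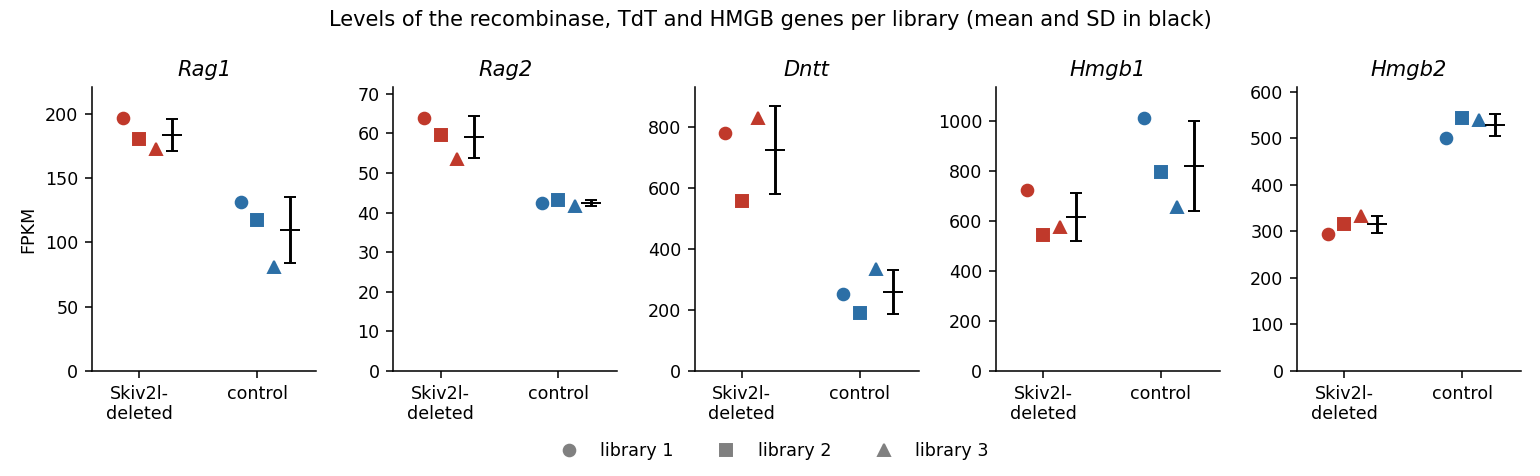
FPKM of Rag1, Rag2, Dntt, Hmgb1 and Hmgb2 in each library, with Skiv2l-deleted libraries in red and controls in blue and the mean and SD (n = 3 each) in black. Rag1, Rag2 and Dntt are higher in each Skiv2l-deleted library than in any control, Hmgb2 is lower, and the Hmgb1 groups overlap.

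Rag1 (chromosome 2, 101638282 to 101649501, minus strand, GRCm38) stood at 197, 181 and 173 FPKM in Skiv2l-deleted libraries, against 131, 117 and 80.9 FPKM in the controls. Each Skiv2l-deleted library lay above each control, and control 3 was the lowest of all. The means were 184 ± 12.4 FPKM in Skiv2l-deleted cells and 110 ± 25.9 FPKM in controls (SD, n = 3 each), 1.67-fold higher. The log2 fold change was 0.76 ± 0.18 (SE, limma adjusted p = 0.0489), and 8.44% of tested genes changed by at least as much. The call stood at the edge of the threshold. It was lost when any 1 library other than control 3 was left out, with a highest limma adjusted p of 0.182 without Skiv2l-deleted 1. Control 3, the library with the lowest Rag1, also carried less signal on long messages. Relative to the other controls, its 1446 tested genes with a transcript of 6000 bases or more had a median log2 difference of −0.30, and its 4894 tested genes with transcripts under 2000 bases one of 0.21. Skiv2l-deleted 2 showed the same pattern against the other Skiv2l-deleted libraries (−0.20 and 0.11), and its Rag1 was not the lowest of its group. The longest Rag1 transcript has 6608 bases, and this description was added after the values were seen. The part of that length pattern in the Rag1 difference was not tested. The log2 fold change without control 3 was 0.56 (limma adjusted p = 0.0249), and without Skiv2l-deleted 2 as well 0.57 (limma adjusted p = 0.0344).

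Rag2 (chromosome 2, 101624718 to 101632529, plus strand), the neighbour of Rag1, stood at 64.0, 59.7 and 53.5 FPKM in Skiv2l-deleted libraries, against 42.4, 43.3 and 41.6 FPKM in the controls. The controls lay close together, below each Skiv2l-deleted library. The means were 59.0 ± 5.28 FPKM in Skiv2l-deleted cells and 42.4 ± 0.85 FPKM in controls (SD, n = 3 each), 1.39-fold higher. Rag2 had a log2 fold change of 0.46 ± 0.10 (SE, limma adjusted p = 0.0401), a size that 20.9% of tested genes reached. This call too was lost without any 1 library other than control 3, up to a limma adjusted p of 0.182 without Skiv2l-deleted 1. Without both Skiv2l-deleted 2 and control 3 it was 0.0667, at a log2 fold change of 0.44. Both RAG genes lie within the span of B230118H07Rik, which runs on the minus strand, the strand of Rag1 and opposite to Rag2. It was listed at 6.33, 11.6 and 10.03 FPKM in Skiv2l-deleted libraries and at 10.6, 5.99 and 11.3 FPKM in the controls. Its groups overlapped, and its levels were below those of Rag2 in all 6 libraries. The libraries were strand specific per the labels. No source used here says whether strand entered the quantification.

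Dntt (chromosome 19, 41029275 to 41059523, plus strand) showed the largest change of the 5 genes. It stood at 781, 559 and 831 FPKM in Skiv2l-deleted libraries, against 251, 190 and 335 FPKM in the controls. The groups did not overlap, and the library closest to the other group was Skiv2l-deleted 2 on one side and control 3 on the other, the pair with the most Mpo. The means were 723 ± 145 FPKM in Skiv2l-deleted cells and 259 ± 73.0 FPKM in controls (SD, n = 3 each), 2.80-fold higher. Dntt had a log2 fold change of 1.50 ± 0.24 (SE, limma adjusted p = 0.0151), a size that 1.68% of tested genes reached. Without Skiv2l-deleted 2 and control 3 it was 1.88 (limma adjusted p = 0.0089). Omitting Skiv2l-deleted 1 (0.0728), Skiv2l-deleted 3 (0.0706) or control 1 (limma adjusted p = 0.0617) ended the call, while the log2 fold change stayed between 1.29 and 1.70 over the 6 omissions.

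Hmgb2 (chromosome 8, 57511907 to 57515999, plus strand) went the other way. It stood at 295, 316 and 333 FPKM in Skiv2l-deleted libraries, against 501, 544 and 538 FPKM in the controls. Both groups were tight and far apart. The means were 315 ± 19.2 FPKM in Skiv2l-deleted cells and 528 ± 23.6 FPKM in controls (SD, n = 3 each), 1.68-fold lower. Hmgb2 had a log2 fold change of −0.74 ± 0.10 (SE, limma adjusted p = 0.0100), and −0.73 (limma adjusted p = 0.0181) without Skiv2l-deleted 2 and control 3. The call was lost without Skiv2l-deleted 1 (0.0646) and without Skiv2l-deleted 3 (limma adjusted p = 0.0525).

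Hmgb1 (chromosome 5, 149046702 to 149184489, minus strand) had the highest level of the 5 genes in the controls. It stood at 724, 545 and 577 FPKM in Skiv2l-deleted libraries, against 1013, 794 and 654 FPKM in the controls. Skiv2l-deleted 1 lay above control 3, so the groups overlapped. The means were 615 ± 95.3 FPKM in Skiv2l-deleted cells and 820 ± 181 FPKM in controls (SD, n = 3 each). The log2 fold change of −0.40 had a 95% interval of −0.86 to 0.05 (limma adjusted p = 0.248). Without Skiv2l-deleted 2 and control 3 it was −0.47 (limma adjusted p = 0.131). The interval over all 6 libraries holds both no change and a fall as large as that of Hmgb2. The mouse genome carries near-identical copies of Hmgb1, so its reads can be shared with them. The tables list 13 under names of Hmgb1 pseudogenes or related sequences, all annotated as processed pseudogenes except Hmgb1-rs17, with 88.3% to 98.6% identity to a messenger of Hmgb1 over the aligned stretch. The processed pseudogene Hmgb1l, listed at 0.0666 FPKM or less, was not in the sum. The 13 summed copies carried 277, 234 and 284 FPKM in Skiv2l-deleted libraries and 331, 322 and 271 FPKM in the controls. With them added, Hmgb1 averaged 880 ± 112 FPKM in Skiv2l-deleted cells and 1128 ± 210 FPKM in controls (SD, n = 3 each, exact two-sided permutation p = 0.2). FPKM is scaled to length, and the copies have 557 to 972 bases against 2838 in the messenger. A read assigned to a copy thus weighs more than one assigned to Hmgb1. The sum is therefore not the level of Hmgb1 with its shared reads returned. Copies at 1 FPKM or more were Hmgb1-ps1 to Hmgb1-ps9 and Hmgb1-rs17, of which none was called.

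The order of the levels changed between the genotypes. In controls Hmgb1 was highest in all 3 libraries, followed by Hmgb2, Dntt, Rag1 and Rag2. In Skiv2l-deleted libraries Dntt stood above Hmgb1 in all 3, and Hmgb2, Rag1 and Rag2 followed. Among the 13539 tested genes Dntt ranked 67 to 125 in Skiv2l-deleted libraries and 230 to 396 in controls. Hmgb2 ranked 197 to 224 in Skiv2l-deleted libraries and 115 to 136 in controls. Rag1 ranked 350 to 434 in Skiv2l-deleted libraries and 590 to 1248 in controls, and Rag2 ranked 1460 to 1846 and 2315 to 2567 in the same order of groups. Of neighbours in this order, Dntt and Hmgb1 overlapped over the Skiv2l-deleted libraries, and no other neighbouring pair overlapped within either group. For single genes the exact two-sided permutation p over the 3 against 3 FPKM values was 0.1, the smallest possible, for Rag1, Rag2, Dntt and Hmgb2, and 0.2 for Hmgb1.

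Ratios of FPKM within a library do not depend on its scaling. They can still carry a pattern with transcript length, and the longest transcripts have 6608 bases for Rag1, 3424 for Rag2 and 2130 for Dntt. The part of the length pattern in the ratios was not tested. Rag1 stood at 3.08, 3.03 and 3.23 times Rag2 in the Skiv2l-deleted libraries, against 3.09, 2.71 and 1.95 times in the controls. The ratio was nearly constant in Skiv2l-deleted cells, and control 3 alone was far below. Dntt stood at 3.96, 3.09 and 4.80 times Rag1 in the Skiv2l-deleted libraries, against 1.92, 1.62 and 4.14 times in the controls. Here control 3 lay among the Skiv2l-deleted values, and without it the groups did not overlap. Hmgb2 stood at 0.408, 0.580 and 0.578 of Hmgb1 in the Skiv2l-deleted libraries, against 0.494, 0.685 and 0.823 in the controls. These groups overlapped. Log2 ratios were taken after 1 was added to each FPKM, so they depend slightly on scaling. The differences of the mean log2 ratio were 0.30 for Rag1 to Rag2, 0.73 for Dntt to Rag1 and −0.34 for Hmgb2 to Hmgb1. None was separated from the spread (exact two-sided permutation p = 0.2, 0.3 and 0.3, and 0.3 each adjusted over the 3 ratios). With 0.1 or 0.5 added in place of 1, or on TPM, the exact two-sided permutation p for Rag1 to Rag2 was 0.3. Without control 3 the Rag1 to Rag2 difference was 0.11, the Dntt to Rag1 difference 1.14 and the Hmgb2 to Hmgb1 difference −0.18. Without Skiv2l-deleted 1 the last was −0.17, and without control 1 it was −0.54. Without control 2 the Dntt to Rag1 difference was 0.47. Each ratio kept its direction in the 6 omissions.

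**Figure D2:**
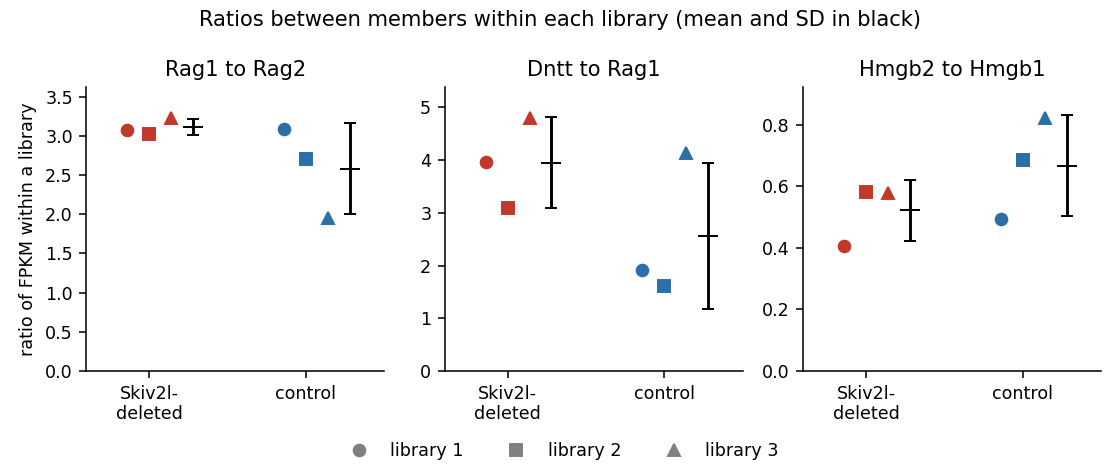
Ratios of FPKM between pairs of members within each library, with Skiv2l-deleted libraries in red, controls in blue and the mean and SD (n = 3 each) in black. The Rag1 to Rag2 ratio is 3.03 to 3.23 in Skiv2l-deleted libraries and 1.95 to 3.09 in controls, and control 3 (triangle) is the lowest there and the highest control in the other ratios.

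Gene profiles most like each member were ranked by the root mean square distance of log2(FPKM + 1), after subtraction of each gene's own mean, over the 6 libraries and 7600 other genes at a mean of 10 FPKM or more. For Rag1 the nearest were Cep68 (0.11 log2 units), Vgll4 (0.11) and Rnf13 (0.11). For Rag2 they were Hsd17b12 (0.05), Gid4 (0.06) and Gm12726 (0.06). For Dntt they were Tmem176a (0.11), Txnrd3 (0.13) and Tbxa2r (0.13), of which Tmem176a stood at 20.9, 16.6 and 20.3 FPKM in Skiv2l-deleted libraries and at 6.97, 4.83 and 8.26 FPKM in controls. For Hmgb1 they were Pitpnm2 (0.10), Haus6 (0.10) and Hjurp (0.10), and HAUS6 and HJURP act in spindle and centromere assembly. For Hmgb2 they were Gpsm2 (0.03), Gm13237 (0.05) and Racgap1 (0.05), and GPSM2 orients the spindle while RACGAP1 acts in cytokinesis. Racgap1 stood at 72.6, 75.9 and 78.2 FPKM in Skiv2l-deleted libraries and at 126, 138 and 124 FPKM in controls. Between members, Rag1 and Rag2 were closest (0.25) and Dntt and Hmgb2 farthest apart (1.16). Each distance is over 6 libraries and partly reflects the genotype difference itself.

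**Figure D3:**
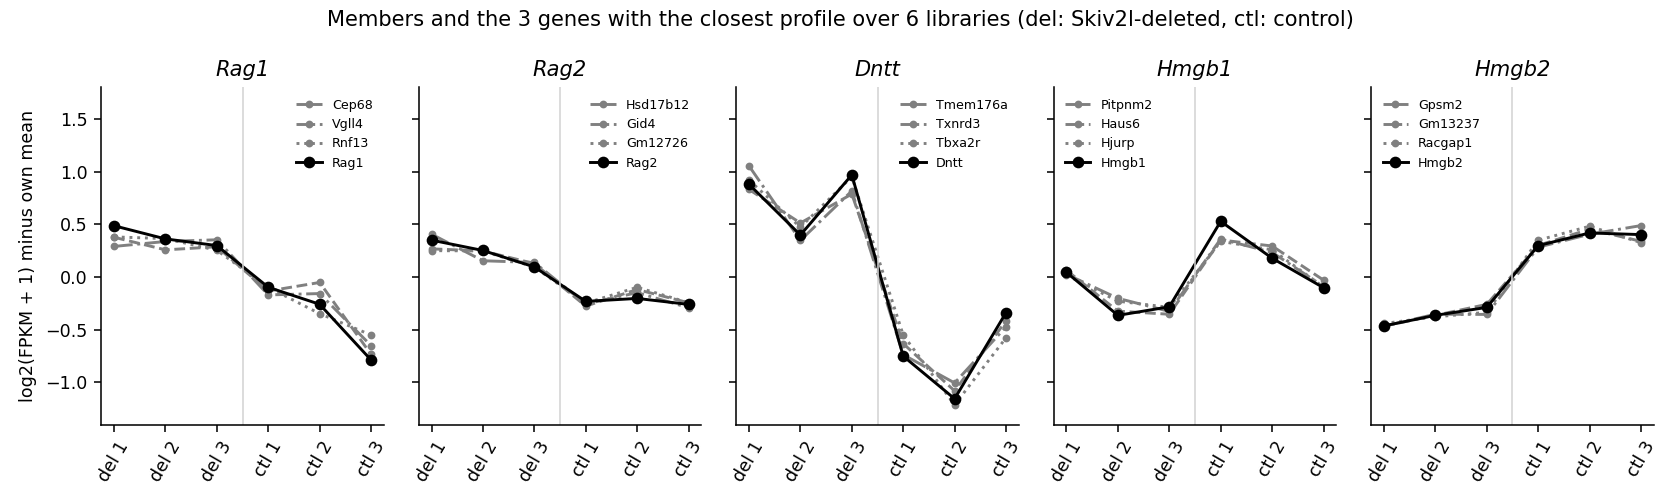
Centred log2(FPKM + 1) of each member (black) and its 3 nearest genes (grey) over the Skiv2l-deleted (del) and control (ctl) libraries. Rag1, Rag2 and Dntt lie higher on the Skiv2l-deleted side and Hmgb2 lower, and Dntt is lowest in control 2 and highest in Skiv2l-deleted 3.

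Among factors known to act on RAG transcription in B lineage cells, Lef1 and Foxo3 rose and Gfi1b fell. Of 19 tested, 2 rose, 1 fell and 16 did not pass, where 4.97% of all tested genes were higher and 3.87% lower, at a median log2 fold change of −0.12. The log2 fold change was above 0 for 8 of them and below 0 for 11, so the list did not move in 1 direction. Lef1, an HMG-box factor known to act at the mouse Rag2 promoter, rose to 148, 111 and 146 FPKM in Skiv2l-deleted libraries, against 71.4, 75.6 and 68.9 FPKM in controls (log2 fold change 0.88 ± 0.14, SE, limma adjusted p = 0.0138). Foxo3, of the FOXO family that activates Rag genes, rose by 0.49 (limma adjusted p = 0.0411). Gfi1b, a repressor of Rag transcription in mouse B lineage cells, fell to 1.75, 3.42 and 1.95 FPKM in Skiv2l-deleted libraries, against 8.48, 8.40 and 9.09 FPKM in controls (log2 fold change −1.55 ± 0.20, SE, limma adjusted p = 0.00923). Gfi1b was called in each omission of 1 library. The Lef1 call was lost without Skiv2l-deleted 1, Skiv2l-deleted 3 or control 1 (up to limma adjusted p = 0.0725), and the Foxo3 call without any library but control 3 (up to 0.187). Foxo1, singled out for its known role after the values were seen, stood at 32.0, 23.6 and 35.4 FPKM in Skiv2l-deleted libraries and at 28.2, 25.9 and 22.2 FPKM in controls. Its groups overlapped (limma adjusted p = 0.462). Other genes of the list, named after their values were seen, had groups without overlap but were not called. Bach2 (−0.97, limma adjusted p = 0.0762), Ikzf1 (−0.63, 0.0986) and Foxp1 (−0.47, 0.0851) were lower. Bcl11a (0.69, limma adjusted p = 0.116), Runx1 (0.33, 0.12) and Gfi1 (0.27, 0.255) were higher. Of all tested genes, 32.2% had groups without overlap. Without control 3 the list had 2 higher and 5 lower, and without both outlying libraries 3 higher and 6 lower. Without Skiv2l-deleted 1, Skiv2l-deleted 3 or control 1 it had 0 higher, and without control 2 it had 1.

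**Figure D4:**
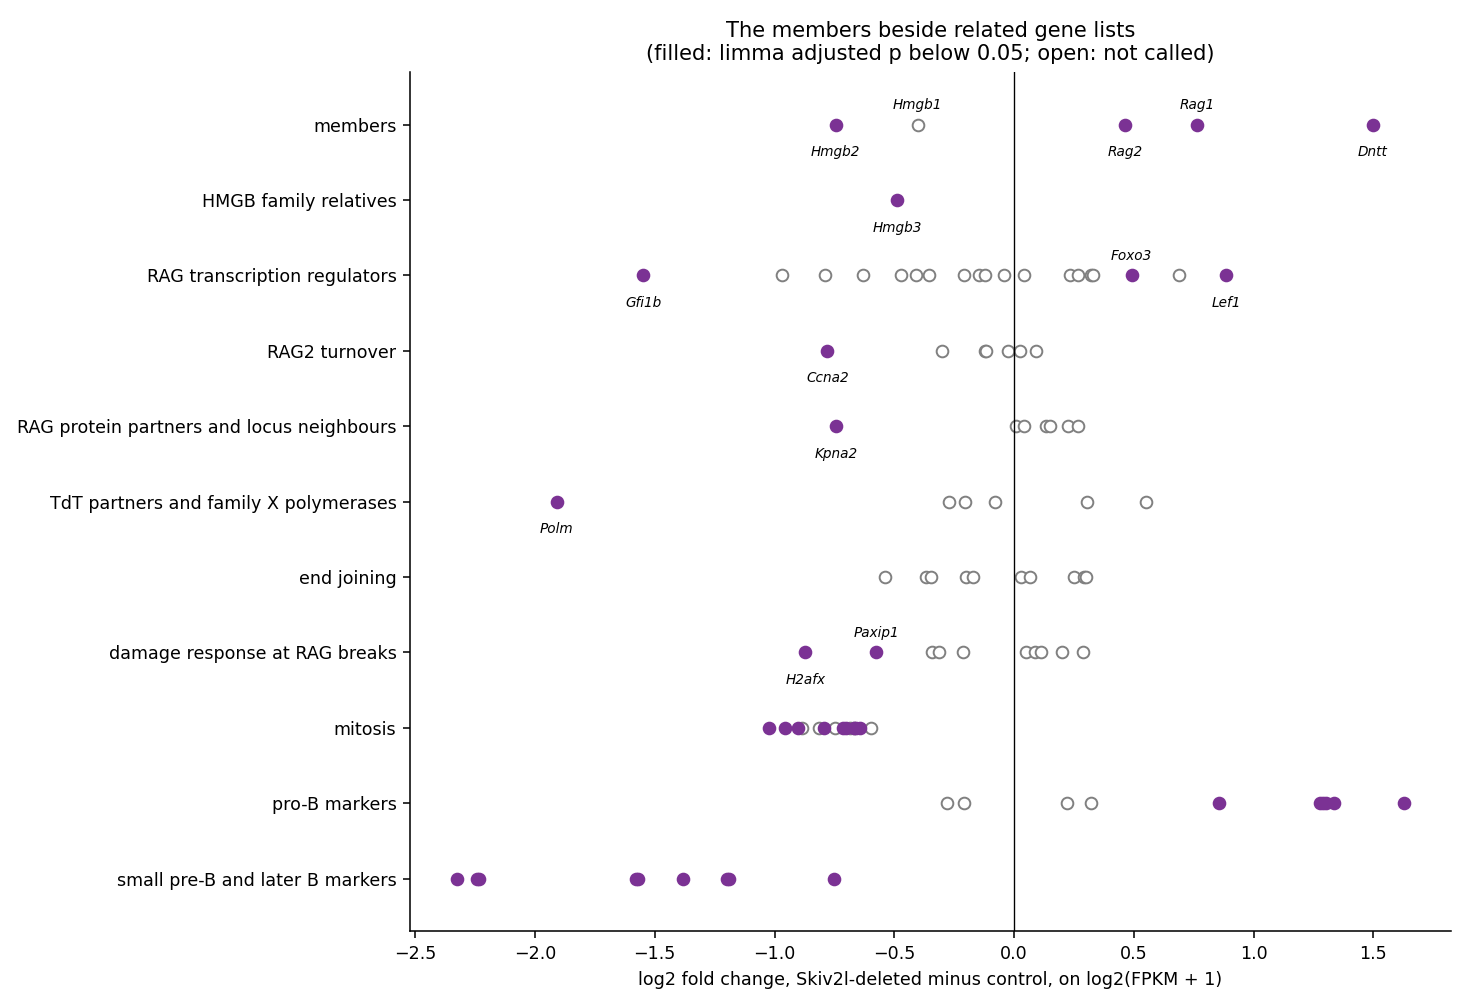
Log2 fold change (Skiv2l-deleted minus control, on log2(FPKM + 1)) of each tested gene in the lists described in the text, with called genes filled and genes not called open. Dntt lies farthest right of the members at 1.50 and Hmgb2 farthest left at −0.74, and the end joining list holds no called gene.

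Genes for the handling of RAG and TdT proteins gave 1 call in each of 3 lists, all lower, where 3.87% of all tested genes were lower. With lists this short, nothing is read from these shares. RAG2 protein is removed at S phase entry after cyclin A and CDK2 mark it for the SKP2 ubiquitin ligase, and of 7 such genes 1 fell and 0 rose. That gene, Ccna2 (cyclin A2), stood at 141, 119 and 150 FPKM in Skiv2l-deleted libraries and at 227, 271 and 208 FPKM in controls (log2 fold change −0.78, limma adjusted p = 0.0223). Of 7 tested RAG partners and locus neighbours, 1 fell, the importin gene Kpna2 (−0.74, limma adjusted p = 0.0295), whose product binds RAG1. Of 6 TdT partners and family X polymerases 1 fell, Polm, a polymerase related to TdT. It stood at 8.81, 28.3 and 17.4 FPKM in Skiv2l-deleted libraries, against 81.8, 49.3 and 66.2 FPKM in controls (log2 fold change −1.91 ± 0.39, SE, limma adjusted p = 0.0301). The Polm call was lost without Skiv2l-deleted 1, Skiv2l-deleted 3, control 1 or control 2 (up to 0.105), that of Kpna2 without any Skiv2l-deleted library or control 2 (up to 0.11), and that of Ccna2 without any library but control 3 (up to limma adjusted p = 0.088). Dntt and Polm therefore moved in opposite directions in the same libraries.

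Of 10 genes for the end joining factors that seal RAG-made breaks, limma called 0, where 8.84% of all tested genes were called, at a median log2 fold change of −0.07. At an unadjusted p under 0.05 there was 1, Nhej1 (encoding XLF), named after its value was seen, with a log2 fold change of −0.54 (limma adjusted p = 0.087). Of 10 damage response genes 2 fell, where 3.87% of all tested genes were lower. These were the histone variant gene H2afx (284 ± 19.0 FPKM in Skiv2l-deleted cells and 524 ± 78.5 FPKM in controls, SD, n = 3 each, log2 fold change −0.87, limma adjusted p = 0.0142) and Paxip1 (−0.58, limma adjusted p = 0.0291). The H2afx call was lost without Skiv2l-deleted 1 or 3 (up to 0.0702) and that of Paxip1 without any library but control 3 (up to limma adjusted p = 0.141).

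Hmgb2 was next compared with the mitosis genes and with its family. Of 15 mitosis genes 9 fell, 0 rose and 6 did not pass, with all 15 log2 fold changes below 0 and a median of −0.71, against 3.87% of all tested genes lower. The 9 were Aurka, Aurkb, Bub1, Ccnb2, Cdk1, Plk1, Top2a, Tpx2 and Ube2c, of which Ccnb2 (cyclin B2) stood at 98.7, 104 and 104 FPKM in Skiv2l-deleted libraries and at 186, 212 and 200 FPKM in controls. Ccnb2 was called in each omission of 1 library. The list count was 1 without Skiv2l-deleted 1, 3 without Skiv2l-deleted 2, 1 without Skiv2l-deleted 3, 5 without control 1 and 3 without control 2. Set against the mean log2 level of the 15 genes, Hmgb2 was 2.09 ± 0.14 higher in Skiv2l-deleted cells and 2.07 ± 0.11 higher in controls (SD, n = 3 each, exact two-sided permutation p = 0.7), a measure added after the values were seen. Hmgb3, the X-linked family member, fell to 48.7, 50.6 and 56.2 FPKM in Skiv2l-deleted libraries, against 73.0, 70.8 and 75.01 FPKM in controls (log2 fold change −0.49 ± 0.10, SE, limma adjusted p = 0.0301, lost without any library but control 3, up to 0.149). Hmgb4 was listed at 0 in all 6 libraries.

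The labelled cell type was checked against its markers, and the levels of Dntt and the RAG genes were set beside them. Of 10 pro-B markers all were above 1 FPKM in every library, 6 rose and 0 fell, against 4.97% of all tested genes higher. Vpreb1, a surrogate light chain gene, stood at 803, 762 and 1008 FPKM in Skiv2l-deleted libraries and at 341, 249 and 492 FPKM in controls (log2 fold change 1.29), and Igll1 rose by 1.28, Vpreb2 by 1.63, Kit by 1.30, Flt3 by 1.34 and Bst1 by 0.86 on the log2 scale. These limma adjusted p were between 0.00923 and 0.0415. The markers Pax5, Ebf1, Il7r and Cd93 were not called, and Pax5, a factor that commits cells to the B lineage, averaged 145 ± 28.7 FPKM in Skiv2l-deleted cells and 167 ± 26.1 FPKM in controls (SD, n = 3 each). The pro-B count was 0 without Skiv2l-deleted 1, 3 without Skiv2l-deleted 2, 1 without Skiv2l-deleted 3, 2 without control 1 and 3 without control 2. Of 9 tested markers of small pre-B and later B cells, 9 fell and 0 rose (Il2ra, Cd2, Ms4a1, Cd22, Fcer2a, H2-Aa, H2-Ab1, H2-Eb1 and Cd74), against 3.87% lower among all genes, and without 1 library the count ranged from 3 (control 1 or control 2) to 8 (Skiv2l-deleted 2). It was 5 without Skiv2l-deleted 1 or control 3 and 4 without Skiv2l-deleted 3. Fcer2a passed the filter on low values only through the controls, where it stood at 2.16, 1.56 and 2.31 FPKM. In Skiv2l-deleted libraries it stood at 0.0554, 0.250 and 0.145 FPKM. Its lower result was thus favoured by the filter, and it was not tested without a control library. The summed level of the list was 141 to 224 FPKM in Skiv2l-deleted libraries and 457 to 551 FPKM in controls.

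Markers of other cells were present at different levels. The 7 plasma cell markers summed to 127 to 152 FPKM in Skiv2l-deleted libraries and 445 to 624 FPKM in controls, with the IgA gene Igha at 0.302, 0 and 0.0845 FPKM in Skiv2l-deleted libraries and 216, 164 and 380 FPKM in controls. Most of the sum in Skiv2l-deleted libraries came from Irf4 (72.1, 67.9 and 79.7 FPKM) and Xbp1 (42.6, 75.9 and 44.8 FPKM). Irf4 (log2 fold change −0.80, limma adjusted p = 0.0636) and Xbp1 (0.30, limma adjusted p = 0.510) were not called. Prdm1 was at 0.511 FPKM or less in all 6 libraries and was not tested. Of the 6 tested, 4 were lower (Igha, Ighg1, Jchain and Sdc1), where 3.87% of all tested genes were, and 0 were higher. Igha, Ighg1 and Jchain passed the filter on low values only through the controls. Such a pass favours a lower result, so nothing is read from this count beside that share. The count of lower genes was 3 without Skiv2l-deleted 1 or 3, 4 without Skiv2l-deleted 2, 0 without control 1 or control 2 and 2 without control 3. Without a control library Igha, Ighg1 and Jchain did not reach the filter and were not tested. In the 3 fits without a Skiv2l-deleted library each of these genes was called (limma adjusted p up to 0.0434). The 7 myeloid markers summed to 75.6 to 2229 FPKM in Skiv2l-deleted libraries and 123 to 1255 FPKM in controls. Of 6 tested, limma called 0, where 8.84% of all tested genes were called, and 0 had an unadjusted p under 0.05. The 7 erythroid markers summed to 8.37, 202 and 3.75 FPKM in Skiv2l-deleted libraries and to 7.21, 7.95 and 4.36 FPKM in controls. The high value was that of Skiv2l-deleted 2 alone. Of 4 tested, limma called 0, against the same 8.84%, and 0 had an unadjusted p under 0.05. The 7 T cell markers summed to 27.3 to 45.1 FPKM in Skiv2l-deleted libraries and 30.4 to 31.2 FPKM in controls, with Cd3e listed at 0 in 5 of the 6 libraries. Most of each sum came from Lck, at 36.4, 19.9 and 26.6 FPKM in Skiv2l-deleted libraries and 28.3, 27.9 and 27.6 FPKM in controls. Lck was not called (limma adjusted p = 0.91). The part of these cell mixtures and of the stage markers in the Rag1, Rag2, Dntt and Hmgb2 differences was not tested.

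**Figure D5:**
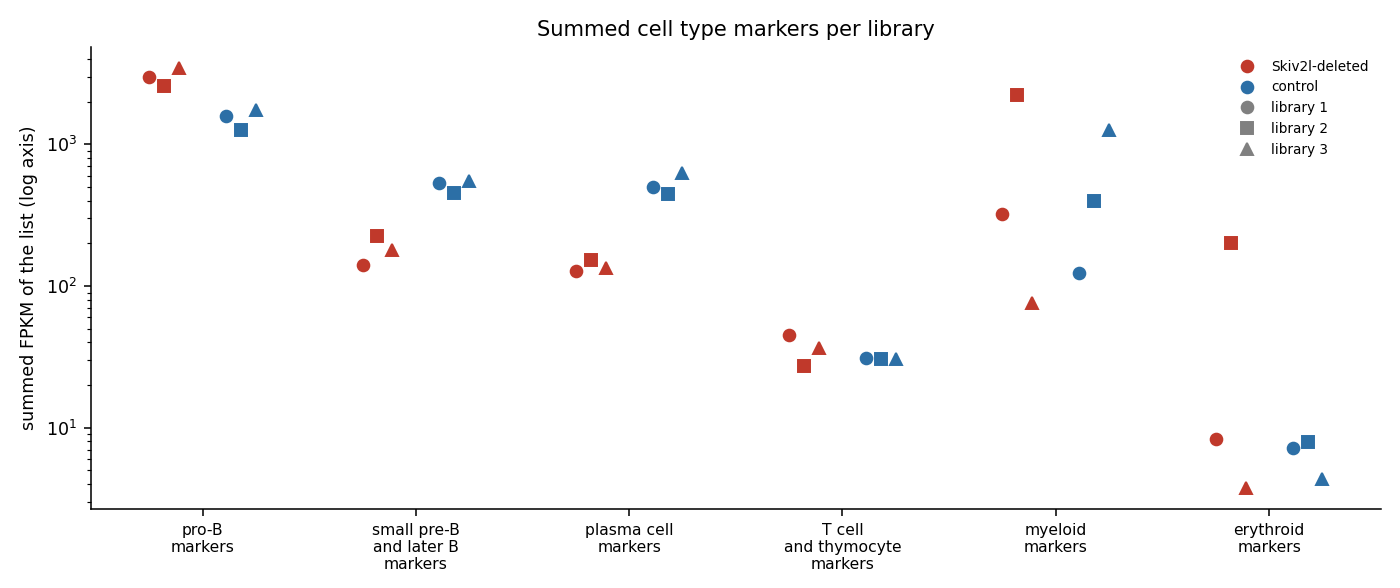
Summed FPKM of each marker list per library on a log axis, with Skiv2l-deleted libraries in red and controls in blue. Pro-B markers sum higher and later B and plasma cell markers lower in the Skiv2l-deleted libraries, and the myeloid sums are highest in Skiv2l-deleted 2 (2229) and control 3 (1255). Most of each pro-B sum comes from the surrogate light chain genes Igll1, Vpreb1 and Vpreb2.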

How the data were processed

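Strand-specific messenger RNA libraries were made from sorted pro-B cells of 3 Skiv2l-deleted and 3 control mice, per the labels. The deposited gene tables give coverage, FPKM and TPM per gene from the authors, per the file headers. Aligned bases were estimated as the median ratio of deposited coverage to FPKM, over genes above 1 FPKM with a single annotated transcript. Coverage was used for this estimate only, and the deposited TPM values only as an alternative. Per the submitters' processing notes GRCm38 was used. The aligner and quantifier were not given in the sources used here. No read counts were analysed here, so no counting interval is given.

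Values of an identifier listed on several lines (7 to 9 per library) were summed. A gene had to reach 1 FPKM in 3 libraries or more of the 6, and the 13539 that did were tested on log2(FPKM + 1) with limma 3.58.1 in R 4.3.3, with a mean-variance trend and Benjamini-Hochberg adjustment over all tested genes. A gene was called at an adjusted p below 0.05. Fold changes on this scale understate changes of genes with low values. Single values were compared by exact two-sided permutation tests, whose smallest p for 3 against 3 is 0.1. Copies of Hmgb1 were aligned to its messenger with blastn 2.17.0. Promoters came from RefSeq (GRCm38.p6), and all 5 genes matched.

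The genes and lists were chosen with earlier results of these data known. A marker gene of the pro-B list is not reported here, and the list is counted without it. Named genes were the members, every called gene of each list, the pro-B markers, the 3 nearest profiles per member, expressed copies or antisense genes, and Skiv2l and Cd79a. The 17 alternatives covered pseudocount, filter, unit, scaling, variance model, library weights, the replicate number as a block, each library left out, and both outlying libraries left out.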

Additional observations from a re-analysis of the deposited data

How the results depend on the processing

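The log2 fold changes of the 5 members kept their direction in all 17 alternatives. Calls were less stable (all adjusted p from limma). Rag1 was not called with a pseudocount of 0.1 (0.77, adjusted p = 0.0509), without the filter on low values (0.76, 0.131), on TPM (0.76, 0.0826), after quantile normalization (0.78, 0.0736), after upper quartile scaling (0.75, 0.0608), after scaling to genes other than antigen receptor segments (0.74, 0.0843) or without the mean-variance trend (0.76, 0.0569). Rag2 was not called without the filter (0.46, 0.0612), on TPM (0.47, 0.0629), with the receptor segment scaling (0.44, 0.0672), without the trend (0.46, 0.0559) or in the 4 libraries without Skiv2l-deleted 2 and control 3 (0.44, 0.0667). Dntt was not called without the filter (1.50, 0.066), and Hmgb1 was called with library weights (−0.61, 0.0229).

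Leaving out 1 library gave log2 fold changes of 0.56 to 0.91 for Rag1, 0.41 to 0.53 for Rag2, 1.29 to 1.70 for Dntt, −0.55 to −0.24 for Hmgb1 and −0.79 to −0.70 for Hmgb2. The differences of log2 ratios were 0.11 to 0.44 for Rag1 to Rag2, 0.47 to 1.14 for Dntt to Rag1 and −0.54 to −0.17 for Hmgb2 to Hmgb1. The members called numbered 0 to 4 and all genes called 179 to 1749.

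The members called numbered 1 without the filter, 2 on TPM, 2 with the receptor segment scaling and 2 without the trend, against 4 of 5 in the reported fit. They numbered 3 with a pseudocount of 0.1, quantile normalization, upper quartile scaling or the 4 libraries, 4 with a pseudocount of 0.5 and 5 with library weights. Genes called numbered 512 without the filter and 3449 with library weights, against 1197. The deviations of same-numbered libraries from their group means correlated at 0.0939, −0.428 and −0.355. Those of Skiv2l-deleted 2 and control 3 correlated at 0.557. Because these outlying libraries carry different numbers, the correlations cannot decide whether same-numbered libraries were paired. With the replicate number as a block, 365 genes and 1 member were called, and the adjusted p was 0.0746 for Rag1 (0.76), 0.151 for Rag2 (0.46) and 0.0561 for Hmgb2 (−0.74).

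Near 0, the Pax5 log2 fold change changed sign in the 4 libraries (0.0876). Hmgb2 against the mitosis genes (−0.043 to 0.101 over single omissions) did so without Skiv2l-deleted 2 (−0.017), Skiv2l-deleted 3 (−0.025) or control 2 (−0.043). For the 47 other called genes named, 783 of 783 alternative values kept their direction and 563 kept the call. The causes of these changes were not tested.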

Other observations

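Among markers of other lineages, Thy1, a surface protein of T cells and some early progenitors, was higher in Skiv2l-deleted cells. It stood at 8.50, 6.58 and 9.69 FPKM in Skiv2l-deleted libraries, against 2.75, 2.25 and 3.09 FPKM in controls, without overlap. The log2 fold change was 1.32 ± 0.18 (SE, limma adjusted p = 0.00945), and the call was lost without Skiv2l-deleted 1 or 3 (up to limma adjusted p = 0.0563). The T cell receptor complex genes Cd3e and Cd3g and the coreceptors Cd4 and Cd8a were listed at 0.391 FPKM or less in all 6 libraries. Poll, a family X polymerase that fills gaps during end joining and was singled out after its values were seen, stood at 13.7, 12.3 and 12.2 FPKM in Skiv2l-deleted libraries and at 7.39, 8.01 and 9.83 FPKM in controls, but did not pass the test (limma adjusted p = 0.0537).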
